A study of Mus musculus with 8 samples.

Results

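Pax6 binding was examined at the genes of histone-modifying enzymes and of bromodomain readers in alphaTC1 cells, an established mouse cell line of glucagon-producing pancreatic alpha cells. The members were the Pax6 sites that the authors' annotation assigned to a gene whose symbol begins with Kat, Hdac, Sirt, Kmt, Setd, Nsd, Kdm or Brd followed by a digit, or with Ehmt, Suv39 or Prmt, or is Dot1l, Ep300 or Crebbp, with Hdac1 and Hdac2 left out. This gave 150 of the 26244 sites in the authors' deposited table, at 56 of 10195 genes; Hdac1 and Hdac2 had 0 sites, so leaving them out changed nothing. Each site is a window of 100 bp on mouse build mm10.

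The study compared 2 groups of alphaTC1 cells. One had received antisense oligonucleotides with a scrambled sequence (control KD) and the other antisense oligonucleotides against Paupar (Paupar KD), a non-coding RNA gene beside Pax6; both were immunoprecipitated with a Pax6 antibody. Each group had 2 Pax6 ChIP libraries from separate biological samples, per the series' design text, and 2 input libraries that were not analysed here. The model is 1 cell line, Paupar RNA itself cannot be read from this assay, and no expression values were analysed here, so alpha-cell markers were not checked. Read depth is not given in the sources used here. Summit lists differed in length: the 2 control KD libraries had 14311 and 9983 peak summits against 15611 and 17942 in the Paupar KD libraries.

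Histone marks are written, removed and read by separate protein families. Acetyltransferases add acetyl groups to histone lysines, a mark of active promoters and enhancers, and histone deacetylases and sirtuins remove them. Lysine and arginine methyltransferases add methyl groups whose effect depends on the residue, lysine demethylases remove them, and bromodomain proteins bind acetylated lysines. Pax6 is a transcription factor with a paired domain and a homeodomain that is needed for the development and function of islet endocrine cells.

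The DNA under the sites can be shown where a site overlaps a promoter window of the reference, which here runs from 250 bases before a gene start to 50 bases after it (RefSeq, GRCm38.p6, the assembly that mm10 names). Member sites overlapped 16 such windows. The 3 stretches below are the parts of member sites that lie within 250 bases upstream of the named gene's own start and outside every RefSeq gene, over at least 50 bases. They show the DNA on which Pax6 signal was measured next to the starts of a deacetylase, an arginine methyltransferase and a demethylase gene. Signal was counted over the site, and a peak summit need not lie in the stretch. The Hdac5 summit, found in control KD replicate 2 alone, lay 2 bp from the site's middle. The best-scoring summits near the other sites lay outside the printed stretches. They stood 172 bp from the middle at Prmt2, in Paupar KD replicate 2 alone, and 229, 227 and -88 bp from it at Kdm5c. Capitals mark CG dinucleotides, which are dense in promoters of widely expressed genes.
Hdac5, chr11:102230252-102230351, minus strand, 179 to 80 bases upstream: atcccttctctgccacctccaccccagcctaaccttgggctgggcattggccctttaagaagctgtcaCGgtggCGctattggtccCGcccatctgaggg
Prmt2, chr10:76237866-76237945, minus strand, 80 to 1 bases upstream: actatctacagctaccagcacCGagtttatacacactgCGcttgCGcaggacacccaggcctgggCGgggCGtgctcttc
Kdm5c, chrX:152232977-152233029, plus strand, 250 to 198 bases upstream: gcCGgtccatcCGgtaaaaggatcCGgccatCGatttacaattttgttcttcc
The Hdac5 stretch held 3 CG dinucleotides, the Prmt2 stretch 5 and the Kdm5c stretch 4. Short motifs linked to Pax6 were searched on both strands: TTCACGC and TTCANGC from the paired-domain site (every match to the first is also a match to the second) and TAATTA from the homeodomain site. None of the 3 stretches held any of them. Among the 16 promoter windows that a member site overlapped, 1 held TTCANGC (6.2%) and 0 held TTCACGC or TAATTA. Over all 32851 promoter windows the shares were 10.8% for TTCANGC, 1.3% for TTCACGC and 5.3% for TAATTA, and over the 2500 windows that any site overlapped they were 11.1%, 2.4% and 3.3%. The median number of CG dinucleotides in a window was 16.5 at member sites, 17 at all sites and 7 over all promoter windows. A match or its lack in these letters is a description only.

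The values below are the authors' log2 concentrations, a measure of ChIP reads per site given as 1 mean per group, so no spread between the libraries can be given for them. Where a pair of concentrations is given for a site, control KD comes first. A log2 change is Paupar KD minus control KD, and a site was called higher or lower where the authors' false discovery rate (FDR) was below 0.05. For single libraries the files give peak summits, and a summit counted for a site when it lay within 250 bp of the site's middle. The rank of its score is given as a percentile of that library's own list, where 100 is the highest. The lists differ in length, so a difference in rank between libraries describes the lists and shows no change in binding.

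After Paupar KD, 5 member sites were called higher and 2 were called lower, by the authors' deposited table. The 5 higher sites are 3.33% of the members, against 3.26% of all 26244 sites, and the 2 lower sites are 1.33%, against 0.846% of all sites. With so few calls, these shares do not set the members apart. At an unadjusted p below 0.05 the table had 13 members higher (8.67%, against 10.7% of all sites) and 14 lower (9.33%, against 6.67%). The higher sites lay at Hdac4 (2 sites), Kdm2b, Setd5 and Prmt3, and the lower ones at Hdac4 and Brd3. The median log2 change over the members was -0.155, with 58 above 0, 90 below and 2 at 0, beside a median of -0.03 over all sites.

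**Figure D1:**
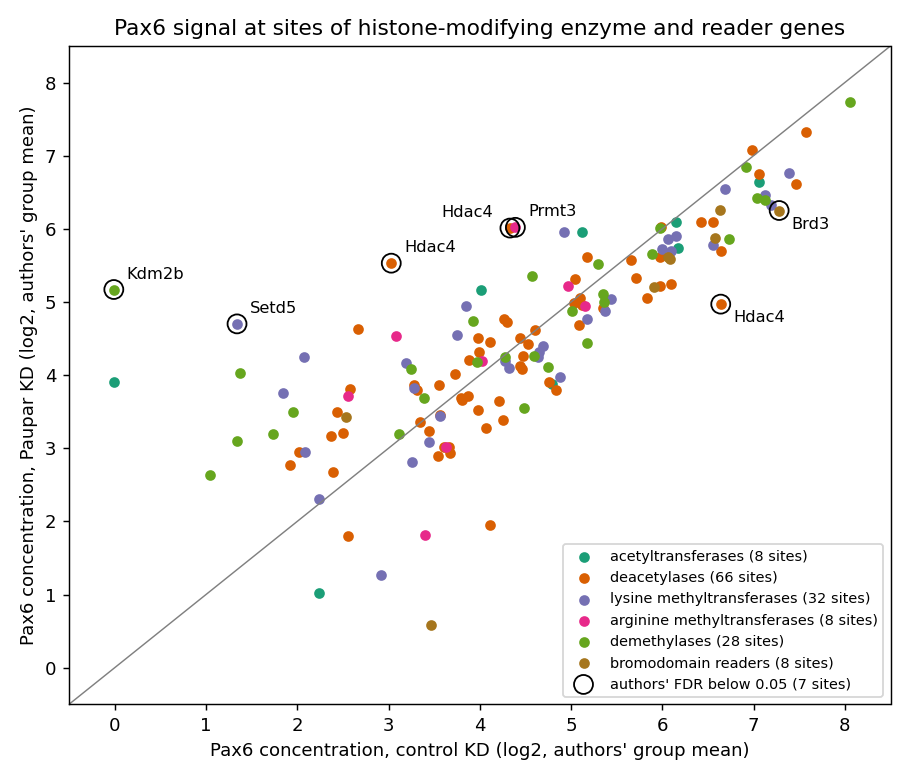
Mean Pax6 concentration (log2) in control KD (x axis) against Paupar KD (y axis) at the 150 member sites, coloured by gene class, with the line of equal values. Rings mark the 7 sites with an FDR below 0.05: 5 above the line and 2 (Hdac4 and Brd3) below it; the control KD value of Kdm2b is the floor.

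Not every gene of these families was listed with a Pax6 site. Of 85 RefSeq protein-coding genes that the rule matches, 56 had a site (65.9%), against 8921 of 21900 protein-coding genes (40.7%). The rule's genes were also longer, with a median of 40.6 kb against 17.1 kb. Among genes under 20 kb, 52.2% of the rule's genes and 30.9% of all genes had a site; from 20 to 50 kb the shares were 78.6% and 46.2%, and from 50 kb they were 64.7% and 58.8%. The difference in shares was not tested. By class, a site was listed for 5 of 10 acetyltransferases, 12 of 16 deacetylases, 17 of 24 lysine methyltransferases, 4 of 8 arginine methyltransferases, 13 of 18 demethylases and 5 of 9 genes with a Brd symbol. The last 9, and the 85 in all, include Brd3os and Brd8dc, which match by symbol and are not counted as readers here; without them 5 of 7 readers and 56 of 83 genes had a site (67.5%).

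Several central members had no listed site. These included Ep300 and Crebbp, which encode the paired coactivator acetyltransferases p300 and CBP, Hdac3, a class I deacetylase, and Sirt1, an NAD-dependent deacetylase. Prmt1, the main asymmetric arginine methyltransferase, also had none. Of the 29 genes without a site, 28 had 0 summits inside the gene in each of the 4 libraries. The exception was Kdm1b, a lysine demethylase gene, which held 1 summit in each of the 4 libraries. That site lay inside Kdm1b but was assigned to the neighbouring gene Tpmt, with concentrations of 6.66 and 6.07 (FDR 0.363 per the authors' deposited table). Conversely, assignment to the nearest start placed 22 of the 150 members (14.7%) inside another RefSeq gene only, such as the single Kmt2c site, in Galnt11, and the single Kdm1a site, in Luzp1. Another 88 (58.7%) lay inside the gene they were assigned to and 40 (26.7%) in no RefSeq gene.

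Among the acetyltransferases, 5 genes had 8 sites, and 0 were called at an FDR below 0.05. At an unadjusted p below 0.05 by the authors' test, 3 were higher (37.5%, against 10.7% of all sites) and 0 lower (against 6.67%). Of these 3, 1 was a Kat6b site listed at the floor under control KD. The median log2 change of the class was -0.24. Kat2b, which encodes the acetyltransferase PCAF, had the strongest site of the class, in an intron (chromosome 17, 53578894 to 53578993), with 7.06 under control KD against 6.64 under Paupar KD (FDR 0.524 per the authors' deposited table). Its summit stood at percentiles 95.4 and 95.6 of the control KD lists and 88.7 and 97.2 of the Paupar KD lists, so all 4 libraries ranked it high and the groups overlapped. Another intronic Kat2b site (53587177 to 53587276) had 5.12 and 5.96 (FDR 0.274), and one farther in (53596465 to 53596564) had 4.01 and 5.16 (FDR 0.282 per the authors' deposited table). At the latter site control KD replicate 1 had a summit at percentile 48.4, control KD replicate 2 had none, and the Paupar KD libraries stood at 78.4 and 72.8.

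Kat5, the catalytic subunit of the TIP60 complex, had a promoter site with nearly equal concentrations, 6.15 and 6.09 (FDR 0.962 per the authors' deposited table). Summits there were found in both Paupar KD libraries, at percentiles 21.3 and 74.7, and in no control KD library, although the concentrations differed by -0.06. A site assigned to Kat6b, a MYST-family acetyltransferase gene, lay in an intron of Adk and was listed at the floor of -0.01 under control KD but at 3.90 under Paupar KD (FDR 0.122 per the authors' deposited table). At the floor no fold can be given. The promoter site of Kat14, an acetyltransferase gene of the ATAC complex, was the weakest member, with 2.24 and 1.02 in the authors' deposited table, and had a summit in control KD replicate 1 alone.

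The lysine methyltransferases had 32 sites at 17 genes, of which 59.4% lay in promoters (within 3 kb of a transcript start), against 27.5% of all sites. Of the 32 sites, 1 was called higher (3.12%, against 3.26% of all sites) and 0 lower. The called site was at Setd5 (Entrez gene 72895), a SET-domain gene. It lay in a Setd5 intron, 5.01 kb upstream of the nearest transcript start (chromosome 6, 113099821 to 113099920), and had 1.34 under control KD against 4.70 under Paupar KD, a log2 change of 3.37 (FDR 0.0189 per the authors' deposited table). The control KD value was low, beside a median of 4.34 over all sites, so the size of this change rests on a weak signal. Only Paupar KD replicate 1 had a summit there, at percentile 61.9, and the other Paupar KD library had none, like both control KD libraries.

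The strongest methyltransferase sites lay in promoters. Setd4, another SET-domain gene, had 7.39 and 6.76 (FDR 0.653 per the authors' deposited table), with its single summit in replicate 2 of Paupar KD, at percentile 87.7. Kmt2d, a monomethyltransferase of enhancers, had 7.13 and 6.46 (FDR 0.194 per the authors' deposited table), with a summit in replicate 1 of control KD (58.5) and replicate 2 of Paupar KD (59.7). Setd1a, which encodes a methyltransferase of active promoters, had 7.19 and 6.33 (FDR 0.115) at its promoter in the authors' deposited table, where both control KD libraries had a summit (30.1 and 9.6) and no Paupar KD library did. The promoter of Kmt2a, the gene of the MLL1 methyltransferase, had 5.37 and 4.87 (FDR 0.672 per the authors' deposited table), with summits in all 4 libraries.

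Some of these genes had several sites. Setd1b, the close relative of Setd1a, had 5 sites, the strongest at a promoter with 6.15 and 5.90 (FDR 0.793 per the authors' deposited table) and summits in the Paupar KD libraries only. Kmt5a, a monomethyltransferase of histone H4, had 4, all in promoters. All 4 Kmt5a sites had a log2 change below 0, from -0.78 to -0.39, and the strongest (chromosome 5, 124450204 to 124450303) had 6.56 and 5.78 (FDR 0.189 per the authors' deposited table). Its summit was present in all 4 libraries, at 74.3 and 84.8 in control KD and at 68.8 and 60.9 in Paupar KD. Setd7, a methyltransferase of histone H3 and of other proteins, had 5 weaker sites, the strongest of which had 4.32 and 4.10 (FDR 0.916 per the authors' deposited table). The sites of Ehmt2, which encodes the repressive methyltransferase G9a, with 4.88 and 3.97 (FDR 0.493), and of Dot1l, the methyltransferase of the globular core of histone H3, with 3.44 and 3.08 (FDR 0.894), were not called in the authors' deposited table; the Dot1l site had no summit in any library.

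The arginine methyltransferases had 8 sites at 4 genes, with a median log2 change of 0.21. Prmt3 (Entrez gene 71974), a ribosome-associated arginine methyltransferase, had 4 of them. Of the 8 sites in the class, 1, at Prmt3, was called higher (12.5%, against 3.26% of all sites) and 0 lower. The called one lay in intron 13 of 15 (chromosome 7, 49842753 to 49842852) and rose from 4.39 to 6.02, a log2 change of 1.62 (FDR 0.0327 per the authors' deposited table). It had a summit at percentile 48.4 in control KD replicate 1, none in control KD replicate 2, and summits at 94.3 and 87.6 in the Paupar KD libraries, both above the control KD value. A neighbouring site in the same intron (49834243 to 49834342) had 3.08 and 4.53 (FDR 0.280), with summits in both Paupar KD libraries only, in the authors' deposited table. The other site in that intron (49848156 to 49848255) had 3.63 and 3.01 (FDR 0.796 per the authors' deposited table), so values within this intron lay on both sides of 0. Prmt5, the main symmetric arginine methyltransferase gene, had 1 promoter site with 4.97 and 5.22 (FDR 0.871 per the authors' deposited table), and the Prmt2 promoter site, part of whose sequence is printed above, had 5.15 and 4.94 (FDR 0.885 per the authors' deposited table).

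Deacetylase genes held 66 of the 150 sites at 12 genes, and Hdac4 alone held 45. Hdac4 (Entrez gene 208727) encodes a class IIa deacetylase that shuttles between cytoplasm and nucleus and acts with transcription factors such as MEF2. Its 45 sites are 30% of the members and the second highest number of sites of any gene, after the 50 of Wwox; by comparison 50.3% of all genes with a site had 1. They spanned 445.2 kb of chromosome 1 (91871141 to 92316390), from 57.6 kb beyond the end of the gene to 120.6 kb upstream of its start. The gene itself covers 266.9 kb on the minus strand (RefSeq, GRCm38.p6) and held 8.6 sites per 100 kb, beside a median of 1.35 in 1546 protein-coding genes of at least 100 kb with a site, of which 42, Hdac4 included, were at least as dense. Twist2 and Ndufa10, on either side of Hdac4, also had many sites, 15 and 17, beside a median of 1 per gene. Between them lay 62 sites, 17 of which were not assigned to Hdac4.

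The Hdac4 sites fell into 3 zones. Upstream of the gene lay 14 sites, with a median log2 change of -0.39, 6 of them with a summit in all 4 libraries. Inside it lay 23, with a median of 0.29 and 1 such site, and beyond its end 8, with a median of -0.035 and 2 such sites. In all, 9 of the 45 (20%) had a summit in all 4 libraries, and 25 had one in a single library. The zones also differed in signal, with a median mean concentration of 4.44 upstream, 3.6 inside and 4.225 beyond the end. Respectively 5, 1 and 3 of their sites lay in the strongest quartile of mean concentration over all sites. The median log2 change of all sites was 0.72 in the weakest quartile and -0.36 in the strongest. Whether the zones differ apart from signal was not tested. The strongest site of the locus lay beyond the gene's end (91871141 to 91871240), with 7.57 and 7.32 (FDR 0.706 per the authors' deposited table). Its summit stood at 98.4 and 96.5 in the control KD lists and at 97.6 and 97.8 in the Paupar KD lists, which overlap. The site just upstream of the gene start (92195958 to 92196057) had 5.99 and 6.02 (FDR 0.982 per the authors' deposited table).

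At Hdac4 3 of the 45 sites were called, 1 lower (2.22%, against 0.846% of all sites) and 2 higher (4.44%, against 3.26%). The lower one lay 69.4 kb upstream of a start (92265066 to 92265165) and fell from 6.64 to 4.97, a log2 change of -1.67 (FDR 0.00122 per the authors' deposited table). All 4 libraries had a summit there, at percentiles 73.1 and 81.0 in control KD and at 59.6 and 2.9 in Paupar KD, so both Paupar KD ranks were below both control KD ranks, and replicate 2 was far below. The nearest strong neighbour, farther upstream (92272144 to 92272243), had 7.47 and 6.61 (FDR 0.101 per the authors' deposited table), with ranks of 82.2 and 95.9 in control KD and 96.2 and 95.8 in Paupar KD.

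Of the higher Hdac4 sites, one lay in intron 20 of 26 (91956378 to 91956477) and rose from 3.03 to 5.53, a log2 change of 2.50 (FDR 0.0107 per the authors' deposited table). Its single summit came from replicate 1 of Paupar KD, at percentile 83.4. The other lay beyond the end of the gene (91883181 to 91883280) and rose from 4.33 to 6.01, a log2 change of 1.68 (FDR 0.0143 per the authors' deposited table). Both Paupar KD libraries had a summit there, at percentiles 86.0 and 90.0, and neither control KD library did. The most negative log2 change at the locus, -2.16 at an intron 1 site (92173839 to 92173938) with 4.11 and 1.95, was not called (FDR 0.205 per the authors' deposited table).

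**Figure D2:**
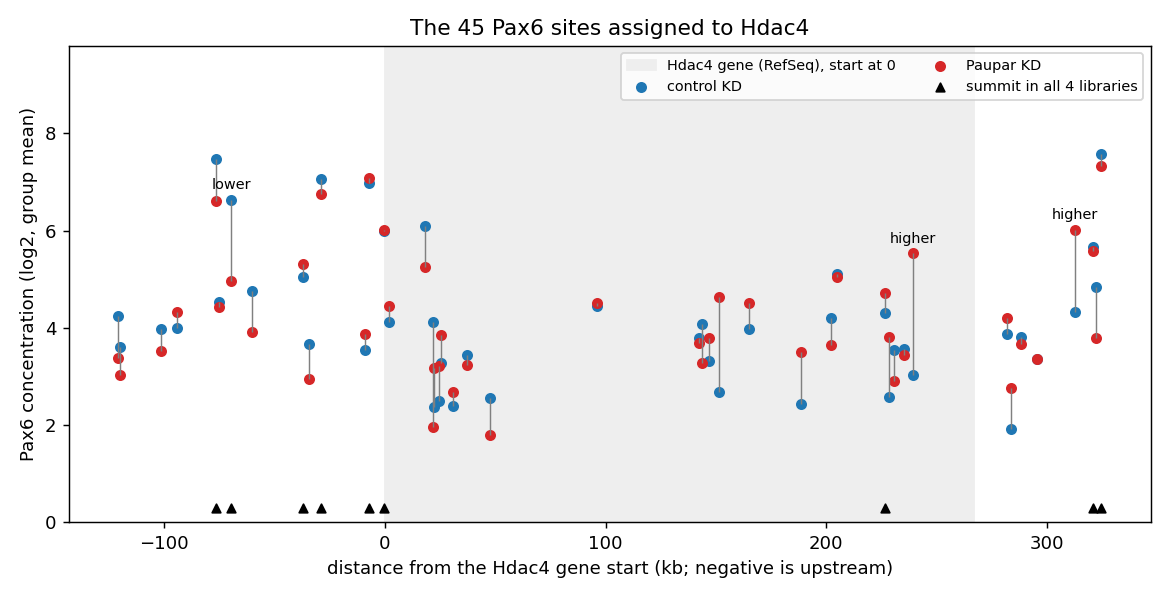
Pax6 concentration (log2, authors' group means; blue control KD, red Paupar KD) at the 45 sites assigned to Hdac4, against distance in kb from the gene start, with the gene shaded and triangles under the 9 sites where every one of the 4 libraries had a summit. The 1 lower site lies upstream of the gene, 1 higher site inside it and 1 beyond its end.

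The other deacetylase genes had 21 sites at 11 genes, of which 0 were called at an FDR below 0.05. At an unadjusted p below 0.05 by the authors' test, 0 were higher (against 10.7% of all sites) and 1 was lower (4.8%, against 6.67%). Their median log2 change was -0.33, with 4 above 0, 16 below and 1 at 0. Of these 21 sites, 8 lay in the strongest quartile of mean concentration over all sites. In that quartile the median of all sites was -0.36, and 77.1% were below 0. The site with the unadjusted p below 0.05 lay at the promoter of Sirt6, a chromatin-bound sirtuin, and had 6.64 and 5.69, with p = 0.00672 (FDR 0.0969 per the authors' deposited table). Summits there stood at 62.0 and 63.2 in the control KD lists and at 63.2 in Paupar KD replicate 1, which overlap, with none in Paupar KD replicate 2. The 5 sirtuin genes together had 8 sites with a median of -0.405, 7 of them below 0, and 4 of the 8 lay in the strongest quartile. Sirt4, a mitochondrial sirtuin gene, had 4 sites, of which the promoter site had the single positive sirtuin value, with 5.17 and 5.61 (FDR 0.680 per the authors' deposited table). A stronger Sirt4 site (chromosome 5, 115489919 to 115490018) was annotated as intergenic, 5.19 kb upstream of the nearest transcript start, but lay inside the RefSeq Sirt4 gene. It had 6.56 and 6.09 (FDR 0.497 per the authors' deposited table). Within the summit window, its summits stood at 89.6 and 50 in control KD, and Paupar KD had none. The control KD summits lay 199 and 217 bp from the site's middle, near the edge of that window. The RefSeq Sirt4 gene, which also holds the promoter site, held 2 summits in every library. Whether a Paupar KD summit lay just outside the window was not tested.

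Hdac7, another class IIa deacetylase gene, had 6 sites, and the strongest, in intron 1, had 6.42 and 6.09 (FDR 0.680 per the authors' deposited table). That summit was present in all 4 libraries, at 94.9 and 72.9 in control KD and 80.0 and 93.0 in Paupar KD, ranges that overlap. Hdac5, the remaining class IIa gene with a site, had 5.83 and 5.05 (FDR 0.408 per the authors' deposited table) at the promoter window printed above, with a summit in control KD replicate 2 alone, at percentile 2.6.

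Demethylase genes had 28 sites at 13 genes, with a median log2 change of 0.005. Of the 28, 1 was called higher (3.57%, against 3.26% of all sites) and 0 lower. Kdm2b (Entrez gene 30841), whose product binds unmethylated CG dinucleotides and brings Polycomb repressive complexes to them, had the member site with the smallest FDR among the higher ones. It lay in the last intron, 22 of 22 (chromosome 5, 122873713 to 122873812), and was listed at the floor of -0.01 under control KD but at 5.17 under Paupar KD (FDR 0.00176 per the authors' deposited table). Neither control KD library had a summit there, and the Paupar KD libraries had summits at percentiles 83.3 and 72.3. The lists and the concentrations come from the same libraries, so the lists are no independent check of the call. The other Kdm2b sites were not called, with 1.95 and 3.49 (FDR 0.558) at one and 4.75 and 4.11 (FDR 0.646) at the other in the authors' deposited table.

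Kdm3a, a demethylase of a repressive histone H3 mark, had the strongest member site, at its promoter (chromosome 6, 71633202 to 71633301), with 8.06 and 7.73 (FDR 0.538 per the authors' deposited table). Its summit stood at 83.0 and 81.4 in control KD and at 85.1 and 95.2 in Paupar KD. All 4 libraries thus ranked it in the upper part of their lists. Kdm7a, a demethylase gene with a PHD finger, had 6 sites, 5 of them 34.7 to 62.3 kb upstream of the nearest annotated start. Of these, the site at 39243108 to 39243207 on chromosome 6 had 6.92 and 6.84 (FDR 0.931 per the authors' deposited table), with ranks between 82.6 and 91.7 in all 4 libraries. Its weak neighbour at 39244755 to 39244854 had 1.37 and 4.03 (FDR 0.140 per the authors' deposited table), and a summit in Paupar KD replicate 2 alone, at 18.

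Other demethylase genes had uncalled sites. The site of Kdm6a, a demethylase of the Polycomb mark, lay outside the RefSeq gene, 48.5 kb from the nearest annotated transcript start, with 4.48 and 3.55 (FDR 0.538 per the authors' deposited table). Kdm6b, which acts on the same mark, had 3 sites, the strongest with 5.18 and 4.44 (FDR 0.516 per the authors' deposited table) and no summit in any library. The 3′ UTR site assigned to Kdm1a, the gene of the demethylase LSD1, had 3.11 and 3.20 (FDR 0.975 per the authors' deposited table). At the promoter of Kdm5a, a demethylase of an active promoter mark, the values were 7.12 and 6.40 (FDR 0.207 per the authors' deposited table), with summits in all 4 libraries. The Kdm5c promoter site, whose upstream sequence is printed above, had 5.36 in control KD and a log2 change of -0.36 (FDR 0.788 per the authors' deposited table), with no summit in control KD replicate 1 and ranks of 44.4, 37.5 and 73.0 in the other libraries.

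Bromodomain readers had 8 sites at 5 genes, 5 of them (62.5%) with a summit in all 4 libraries, against 20% of all sites; 7 of the 8 had a log2 change below 0, with a median of -0.60. Of these 8, 6 lay in the strongest quartile of signal, where 59.1% of all sites had a summit in every library, 77.1% were below 0 and the median was -0.36. In the class 1 site was called lower (12.5%, against 0.846% of all sites) and 0 higher. Brd3 (Entrez gene 67382), a BET-family reader of acetylated histones, held the called site, in exon 6 of 12 (chromosome 2, 27459773 to 27459872). It fell from 7.28 to 6.25, a log2 change of -1.03 (FDR 0.0177 per the authors' deposited table). Its summit stood at percentiles 95.5 and 91.5 in control KD and at 70.2 and 92.3 in Paupar KD, so replicate 1 of Paupar KD was low and replicate 2 lay within the control KD range. The Brd3 promoter site had 6.63 and 6.26 (FDR 0.669 per the authors' deposited table). A distal site of Brd1, a reader of a MYST acetyltransferase complex, had the most negative log2 change of any member, -2.87, with 3.46 and 0.59, and was not called (FDR 0.280 per the authors' deposited table). It had a summit in control KD replicate 2 alone, at percentile 2.2. The second Brd1 site had 5.91 and 5.20 (FDR 0.377), and the site of Brd2, another BET gene, had 2.53 and 3.43 (FDR 0.725 per the authors' deposited table).

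**Figure D3:**
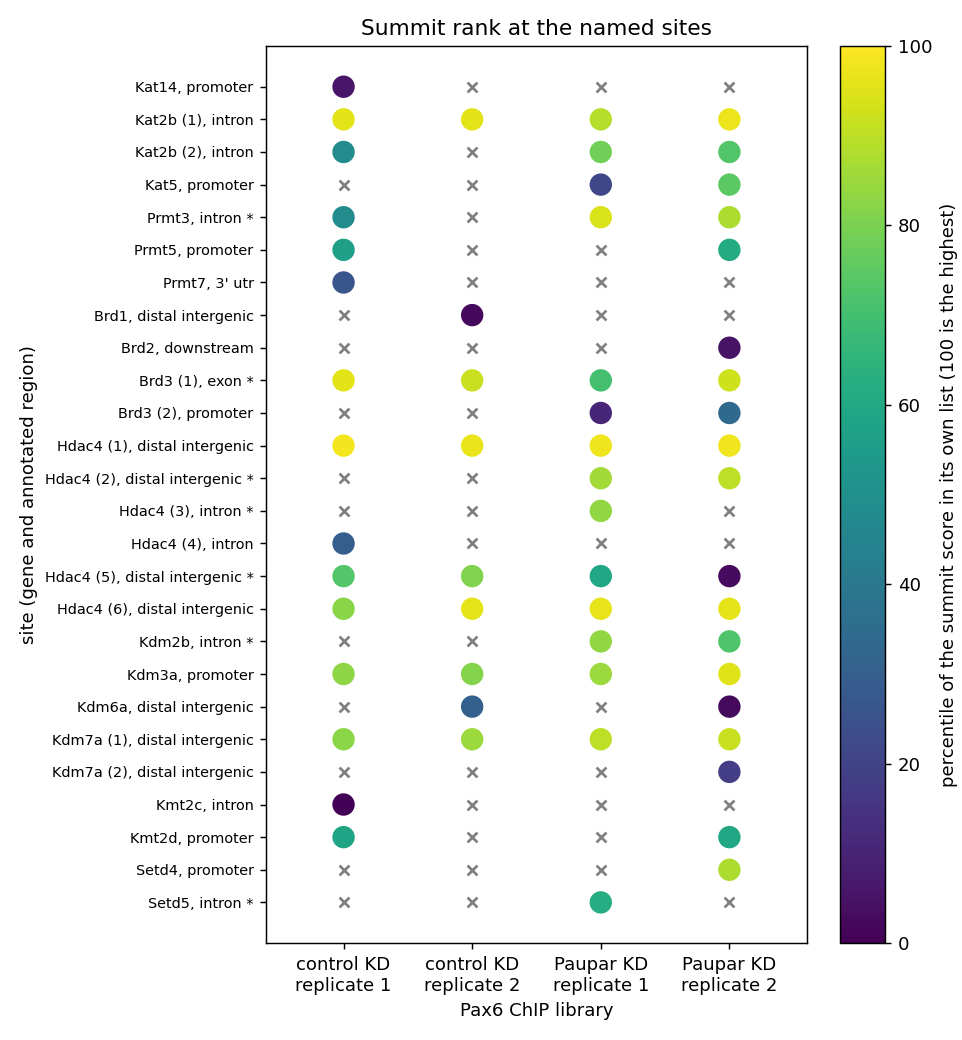
Percentile of the summit score within each library's own list (colour) at the 26 named sites (rows, by class and gene) in the 4 Pax6 ChIP libraries (columns); crosses mark libraries with no summit within 250 bp and asterisks the called sites. The lower Brd3 and Hdac4 sites have a summit in all 4 libraries, and the higher Hdac4, Kdm2b and Setd5 sites have summits in Paupar KD libraries only.

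Over the 4 libraries, 33 of the 150 members (22%, exact Clopper-Pearson 95% interval 15.7 to 29.5%, counting error only) had a summit in all of them, against 20% of all sites. A summit in both Paupar KD libraries and neither control KD library was found at 11 members (7.3%, against 8.3% of all sites), and the reverse at 4 (2.7%, against 1.5%). Of those 11 sites, Hdac4 (91883181) and Kdm2b were called. The Kat5, Kat7, Brd3, Kdm4b, Kdm6b and Setd1b sites among the 11 had log2 changes below 0, from -0.43 to -0.06. The rest were above 0, so the summit pattern alone does not show a rise in signal. The 4 in the reverse pattern were 2 Hdac4 sites, the Sirt4 site at 115489919 and the Setd1a promoter, none of which was called. At the Sirt4 site both control KD summits lay near the edge of the summit window. Its place in this pattern therefore depends on the window. The members took 0.559% and 0.551% of the summits of the control KD libraries and 0.487% and 0.529% of those of the Paupar KD libraries. The difference of the means was -0.0468 percentage points (Paupar KD minus control KD; exact two-sided permutation test, p = 0.333, the smallest that 2 against 2 libraries allow). With every list shortened to the length of the shortest it was -0.01 points, and without Hdac4 -0.0121 points (exact permutation test, p = 0.667 for both).

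Log2 changes were also read by annotated position and signal. The 49 promoter members, at 35 genes, had a median log2 change of -0.35, with 39 below 0, beside -0.23 over all 7216 promoter sites. None was called at an FDR below 0.05 (1.57% of all promoter sites were higher and 1.39% lower), and at an unadjusted p below 0.05, by the authors' test, 1 was higher (2.0%, against 5.3% of all promoter sites) and 7 were lower (14.3%, against 10.7%). The 101 members outside promoters had a median of -0.04, beside 0.08 over all such sites, and held all 7 calls. The 5 higher calls were 4.95% of these members, against 3.9% of all sites outside promoters. The 2 lower calls were 1.98%, against 0.64%. From the weakest to the strongest quartile of mean concentration the members' medians were 0.29, -0.03, -0.185 and -0.38, and those of all sites 0.72, 0.20, -0.12 and -0.36. In the strongest quartile the members and all sites thus had nearly the same median. Of the 24 promoter members in that quartile, 4 (16.7%) had a summit in at most 1 library, against 0 of the 22 members outside promoters; over all sites these shares were 24.8% and 3.1%.

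**Figure D4:**
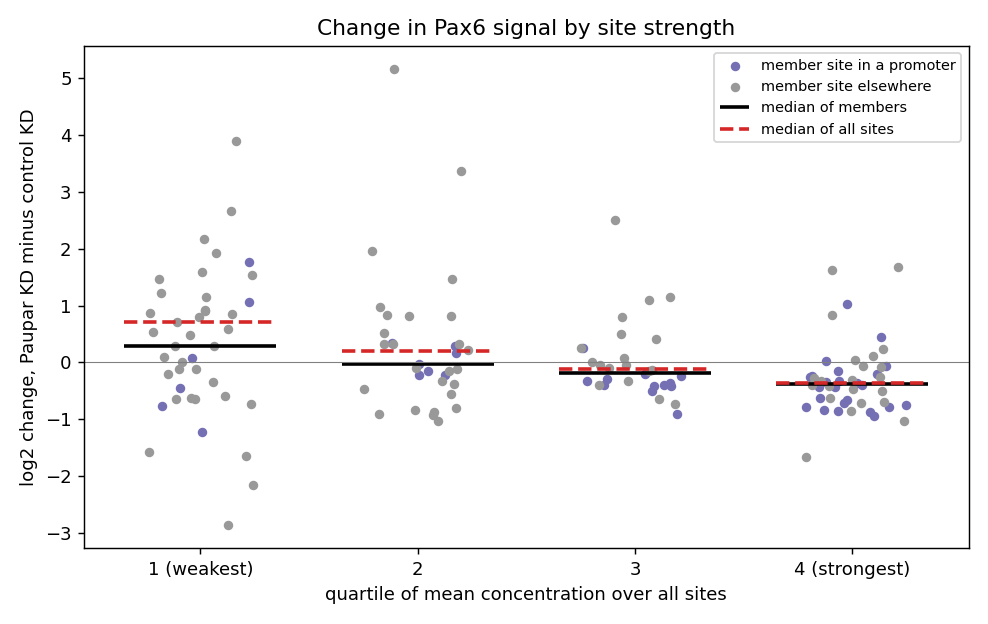
Log2 change (Paupar KD minus control KD) of the 150 member sites by quartile of mean concentration, with promoter sites in purple, others in grey, and the medians of members (black) and of all sites (red, dashed). Members' medians run from 0.29 in the weakest to -0.38 in the strongest quartile; the 2 sites at the control KD floor (5.17 and 3.90) are drawn at their deposited values.

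Genes that work with these enzymes were read from a list of 121 further genes of complexes and related families, of which 70 had 260 sites. Among these, 11 sites were called higher (4.23%, beside 3.26% of all sites) and 1 lower (0.38%, beside 0.846%). The median log2 change was 0.03, with 133 above 0, 125 below and 2 at 0. At an unadjusted p below 0.05 by the authors' test, 30 were higher (11.5%) and 17 lower (6.5%). Genes of acetyltransferase complexes and related coactivators held 9 of the 11 higher sites, out of 67 sites (13.43%, against 3.26% of all sites). At an unadjusted p below 0.05 by the authors' test, 12 of the 67 were higher (17.9%, against 10.7% of all sites). At that threshold 3 were lower (4.5%, against 6.67%). The 9 called sites share few genes. They lay at the p160 coactivator genes Ncoa1 (1 site), Ncoa2 (2) and Ncoa3 (3), and at Epc2, Brpf1 and Elp3 (1 each). The Brpf1 site lay in its promoter and rose from 6.11 to 7.33 (FDR 0.00280), and the Epc2 site, 34.0 kb from the nearest annotated start, rose from 1.34 to 5.30 (FDR 0.00169 per the authors' deposited table). The control KD value at Epc2 was low, beside a median of 4.34 over all sites. Brpf1 is a scaffold of MYST acetyltransferases and Epc2 a relative of a TIP60-complex subunit. The remaining 2 higher sites lay at Smyd3, among 90 sites of methylation genes, and at Phf2, among 16 of demethylation genes. The 39 sites of other reader genes had 0 calls, and 5 of the 39 were listed at the floor in a group. At an unadjusted p below 0.05 by the authors' test, 6 were higher (15.4%, against 10.7% of all sites) and 1 was lower (2.6%, against 6.67%). No test of these lists was run.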

How the data were processed

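Pax6 ChIP-seq was measured in 8 libraries of alphaTC1 cells, 2 ChIP and 2 input in each group, of which the 4 ChIP libraries were used. Build mm10 and the tools Bowtie2, MACS2, DiffBind and ChIPseeker are named, with no version, per the submitters' processing notes. How libraries were normalized is not given in the sources used here; no step was assumed. The authors' deposited concentrations and fold are log2 values per site: the headers do not name the base, and the mean concentration equals the log2 of the mean of the unlogged group values. The fold, deposited as control KD minus Paupar KD, was turned here. The authors' p-value and FDR were used as deposited, since the table holds group means and could not be refitted; at 1010 sites, 10 of them members, the FDR was 1 with a p-value below 0.99, so they lay outside the adjustment. Sites at or below 0 in a group are called listed at the floor. The score in each summit list, called per library, was read from the deposited values as −log10 of the q-value (lowest 2.00); for control KD replicate 2, whose list is numbered differently from its title, the deposited sample decided. Genes, lengths and promoter windows are RefSeq GRCm38.p6, and 56 of 56 member genes matched by ID.

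Members and lists were chosen with earlier results of these data known. Sites were named where called, where strongest, second strongest or most changed in a class, and at genes with at least 4 sites or on a list of central genes; a few others (Kat6b, Kmt5a, Sirt6 and Setd1a sites among them) were named after their values were seen. Coordinates are 1-based. The site matching and motif search were tested on simulated data (Python 3.11.15, pandas 2.3.3, numpy 2.4.6, SciPy 1.17.1). Settings for FDR, signal, site subset, summit window, score and list length were varied. Results for some genes of the lists are not reported here.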

Additional observations from a re-analysis of the deposited data

How the results depend on the processing

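The count of 5 member sites called higher became 1 at an FDR below 0.01, 13 at an unadjusted p below 0.05, 3 among sites above the median signal of all sites, 2 when each gene kept its strongest site, and 3 without Hdac4, a setting chosen after seeing the data; at 4 other settings it was within 1.5 times of 5. The count of 2 called lower became 1 at an FDR below 0.01, without the Brd genes, with the strongest site of each gene and without Hdac4, and 14 at an unadjusted p below 0.05. Fewer sites enter each of the subset settings. The median log2 change of -0.155 stayed below 0 at every setting run: -0.37 for the strongest site of each gene, -0.325 above the median signal, -0.35 in promoters, -0.04 outside them and -0.32 where all 4 libraries had a summit. The median of all sites also moved with such subsets, from -0.03 to -0.23 in promoters, 0.08 outside them and -0.29 where all 4 libraries had a summit. The steady sign therefore does not set the members apart. The 22% of members with a summit in all 4 libraries became 15.3% with summits within 100 bp, where the share over all sites was 13.6%. The difference in summit share, -0.0468 points, kept its sign at every setting but shrank to -0.01 with lists of equal length and to -0.0275 at a score of at least 5 (exact permutation p = 0.667 for both), and ran from -0.0681 to -0.0255 when 1 library was left out; with a replicate block it was -0.0468 (exact sign-flip permutation, p = 0.5), and the replicate numbers are shared numbers only. The limits are 2 libraries a group, group means without spread, unknown read depth, and assignment to the nearest start.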
